A study of Mus musculus with 6 samples.

Results

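The carriers of the SLC25 family are the proteins that move metabolites across the inner membrane of mitochondria. They were taken here as the genes whose symbol is Slc25a followed by digits and whose FPKM was above 0 in at least 3 of the 6 libraries. Of the 24083 genes in the table, 47 had such a symbol and 45 met both conditions. The 2 left out were Slc25a21, above 0 in 1 library at 0.00140 FPKM, and Slc25a54, listed at 0 in all 6. The libraries were polyadenylated RNA of mouse embryonic stem cells, 3 of cells whose Nanog carries the R153A change (R153A) and 3 of cells with wild-type Nanog (WT), all in serum medium with LIF on gelatin and with no other treatment. NANOG is a DNA-binding regulator that helps to keep cells pluripotent. The sources used here do not say how R153A was introduced, whether the R153A cells are 1 clone or whether each library came from its own culture. The p-values therefore measure only the spread between these libraries, which may be technical.

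Every carrier of the family is built from a repeat of the same membrane fold and, in most cases, exchanges a substrate of the mitochondrial matrix for one of the intermembrane space. Together they link the cytosol to oxidative phosphorylation, the citric acid cycle, amino acid breakdown, one-carbon metabolism and the synthesis of heme and iron-sulfur clusters. A few members sit elsewhere, in the peroxisome or the outer mitochondrial membrane. Pluripotent cells rely strongly on glycolysis but also keep respiring mitochondria.

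Values are FPKM, fragment counts corrected for gene length and library size by the authors, so that levels of different genes can be set side by side. Values after ± are SDs over the 3 libraries of a group, unless an SE is named. The depth behind them is unknown, because no read counts were given. Summed FPKM lay between 360152 and 382086 per library. Nanog mRNA was 119, 122 and 129 FPKM in the R153A libraries, against 241, 259 and 258 FPKM in the WT libraries, so that the groups did not overlap. A two-sided exact permutation test gave p = 0.1, and no smaller value is possible for 3 against 3 libraries. Of 7 embryonic stem cell markers, all were tested, 5 were lower in R153A, none was higher and 2 (Tdgf1 and Sall4) did not pass. The summed level of the 7 was 2102 to 2186 FPKM in R153A and 3955 to 4658 FPKM in WT. Most of that gap came from 1 gene, Dppa5a, with 936 ± 20.5 FPKM in R153A and 2575 ± 364 FPKM in WT. Of 8 fibroblast and feeder markers, 7 had a higher mean in R153A, and of the 3 tested Col1a1 was called higher, as was Col1a2, which met the filter through R153A alone and so had to differ to be tested. Their summed level was 8.27 to 9.14 FPKM in R153A and 5.68 to 6.48 FPKM in WT. The matrix proteoglycan gene Lum was listed at 0 in every WT library and in R153A replicate 3, and reached at most 0.0637 FPKM in R153A. Thy1, the marker with the lower mean in R153A, had 3.19 ± 0.274 FPKM in R153A and 3.79 ± 0.467 FPKM in WT and did not pass. The part of these marker differences in the results below was not tested. In such bulk samples, fewer cells of a type and less RNA per cell cannot be told apart.

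Of the 45 carriers, 36 reached 1 FPKM in at least 3 libraries and were tested with limma on log2(FPKM + 1), with Benjamini-Hochberg adjustment over all 11817 genes that passed the same filter. A log2 fold change is the mean of R153A minus the mean of WT on that scale, which understates changes of genes with low FPKM. At an adjusted p under 0.05, 25 of the 36 carriers differed, or 69.4%, beside 59.8% of all genes tested. Of these, 17 were lower in R153A (47.2% of the carriers, beside 22.3% of all genes) and 8 were higher (22.2%, beside 37.5% of all genes). The R153A and WT libraries did not overlap for 26 of the 36 carriers, or 72.2%, beside 65.0% of all genes. The median log2 fold change was -0.14 over the carriers and 0.07 over all genes tested. No test of the list was made. Substrate classes and partner lists below are small, and their counts are to be read beside the 22.3% lower and 37.5% higher among all genes. For the 11 carriers that did not pass, adjusted p lay between 0.120 and 0.899 by limma.

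Under median-ratio scaling 5 carriers were higher and 20 lower, and after a correction for GC content and length 6 were higher and 22 lower. Quantile normalization gave the highest number of calls, 30, with 7 carriers higher and 23 lower. The higher genes made up 32.0% of the carriers' calls as deposited, 20.0% under median-ratio scaling, 23.3% under quantile normalization and 21.4% after the correction. The correction moved the median of all genes tested to -0.04, and the median of the carriers to -0.27. Over all genes, 62.7% of the calls were higher in R153A as deposited, 50.7% under median-ratio scaling, 47.4% under quantile normalization and 44.5% after the correction. The carriers' median minus that of all genes was -0.21 as deposited, -0.20 with median-ratio scaling, -0.25 with quantile normalization and -0.23 after the correction.

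**Figure D1:**
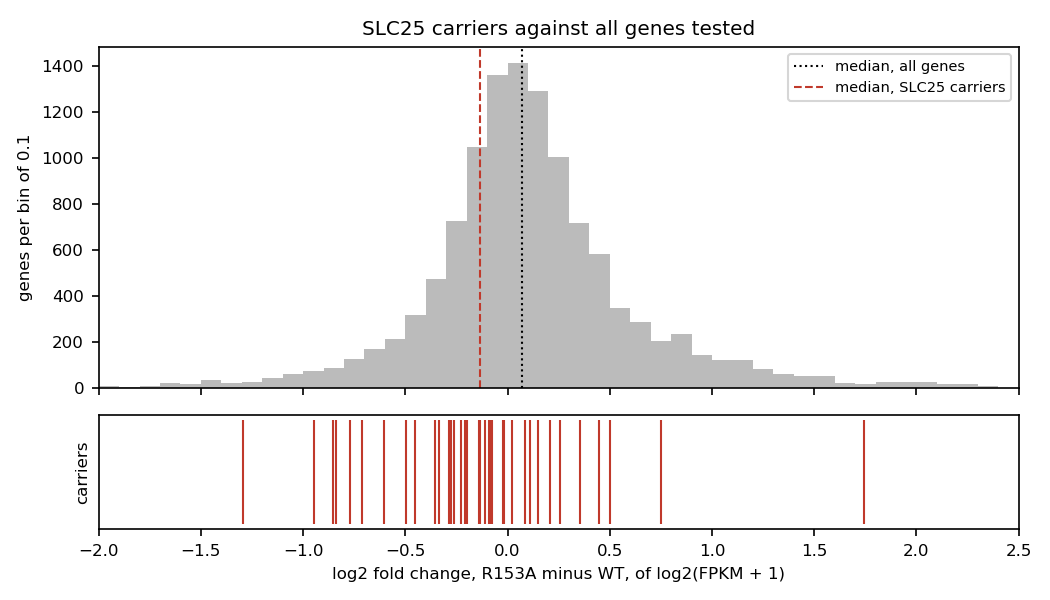
Histogram of the log2 fold changes (R153A minus WT) of the 11817 genes tested, with the 36 carriers as lines in the lower panel. The dashed line marks the carriers' median of -0.14 and the dotted line the median of all genes of 0.07; the carriers run between -1.29 for Slc25a20 and 1.75 for Slc25a24.

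Among the 25 carriers that differed, 10 changed by at least 0.5 on the log2 scale, or 27.8% of the 36, beside 24.3% of all genes tested. The 7 that fell (19.4%, beside 7.99% of all genes) were Slc25a20, Slc25a39, Slc25a35, Slc25a5, Slc25a12, Slc25a36 and Slc25a15. The 3 that rose (8.33%, beside 16.3% of all genes) were Slc25a24, Slc25a10 and Slc25a17. A log2 change of 1 was passed by 2 of the 36, Slc25a20 and Slc25a24, and by 8.29% of all genes. On this scale Slc25a20, a carrier of acylcarnitines, had the lowest value of the 36 and Slc25a24, a carrier of ATP-Mg and phosphate, the highest. With a pseudocount of 0.1 the log2 fold change was -1.61 for Slc25a35 and -1.40 for Slc25a20, so the order of the falls depends on the pseudocount.

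**Figure D2:**
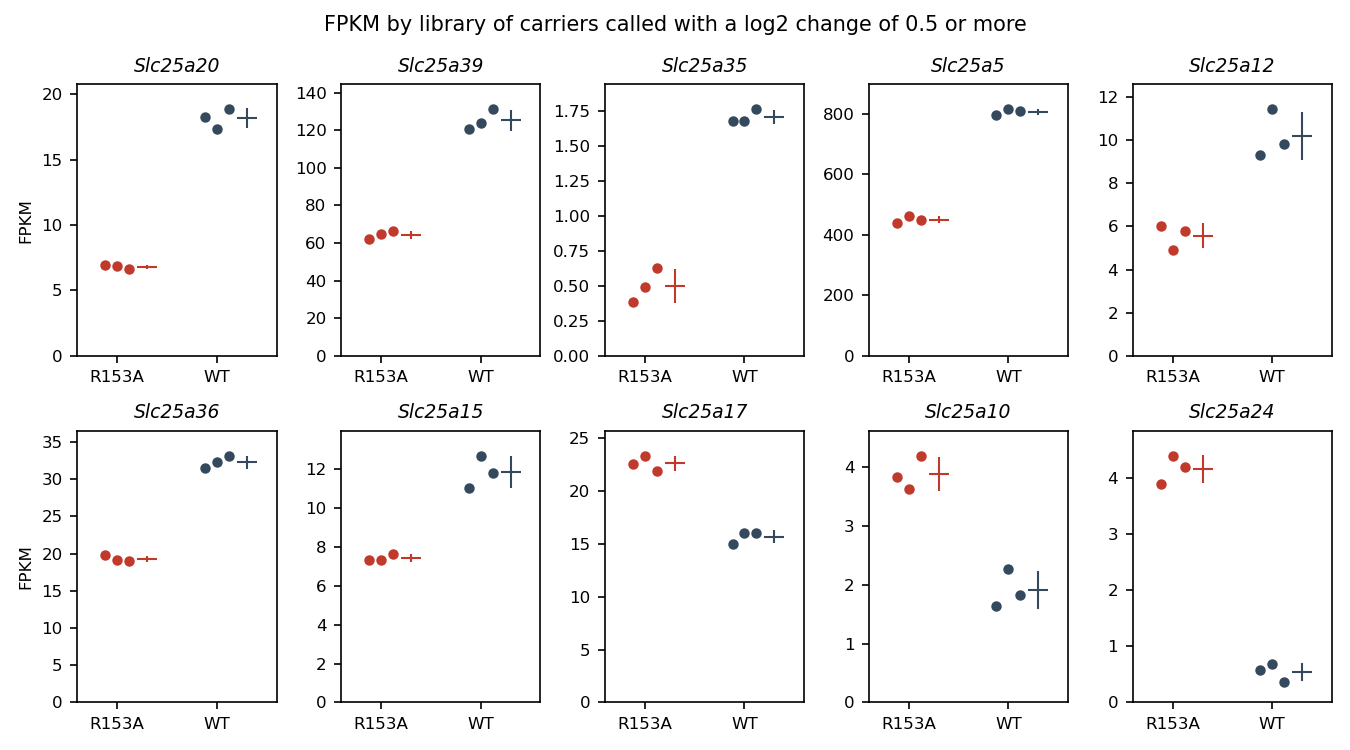
FPKM by library of the 10 carriers called with a log2 fold change of at least 0.5, ordered by log2 fold change from -1.29 to 1.75, with R153A left of WT. Points are libraries, and the crosses give mean ± SD over 3 libraries. In all 10 panels the R153A libraries lie wholly on one side of the WT libraries. The 10 were chosen by these same values, so that this separation is no further result. Of all genes tested, 65.0% did not overlap.

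Promoter sequences of 4 of these 10 carriers are shown, 3 that fell and 1 that rose, so that what lies before genes that moved together or apart can be read. Each runs 5′ to 3′ over the 250 bases before the annotated start (RefSeq, GRCm38.p6, a later build than the mm9 of the deposited files). Capitals mark matches to the searched motifs.
Slc25a20 (chr9:108661886-108662135, plus strand): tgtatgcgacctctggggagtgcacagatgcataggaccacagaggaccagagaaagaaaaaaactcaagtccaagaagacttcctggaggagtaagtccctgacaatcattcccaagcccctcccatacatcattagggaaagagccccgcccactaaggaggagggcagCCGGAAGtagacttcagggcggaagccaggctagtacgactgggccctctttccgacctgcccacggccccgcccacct
Slc25a39 (chr11:102407518-102407767, minus strand): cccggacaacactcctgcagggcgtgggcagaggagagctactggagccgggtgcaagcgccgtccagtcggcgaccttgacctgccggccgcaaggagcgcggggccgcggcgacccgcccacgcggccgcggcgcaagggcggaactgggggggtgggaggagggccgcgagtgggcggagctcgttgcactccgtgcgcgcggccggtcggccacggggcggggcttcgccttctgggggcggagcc
Slc25a36 (chr9:97111042-97111291, minus strand): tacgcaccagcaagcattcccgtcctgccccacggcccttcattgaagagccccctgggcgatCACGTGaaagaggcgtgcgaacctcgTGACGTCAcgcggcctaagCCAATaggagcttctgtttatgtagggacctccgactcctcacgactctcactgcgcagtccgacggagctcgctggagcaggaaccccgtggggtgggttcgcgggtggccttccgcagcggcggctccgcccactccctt
Slc25a24 (chr3:109122899-109123148, plus strand): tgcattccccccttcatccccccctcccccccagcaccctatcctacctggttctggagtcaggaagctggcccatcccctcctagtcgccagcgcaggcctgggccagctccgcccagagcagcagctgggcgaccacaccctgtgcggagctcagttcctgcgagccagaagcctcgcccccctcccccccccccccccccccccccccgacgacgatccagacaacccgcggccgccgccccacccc

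The motifs searched on both strands were TNAAGGTCA (the extended half-site of ERR-type nuclear receptors), CCGGAAG (ETS factors), CACGTG (E-box), TGACGTCA (CRE) and CCAAT, together with the NRF1 consensus. In these windows Slc25a20 held the ETS letters, which begin 79 bases before its start. Slc25a36 held 1 E-box, 1 CRE and 1 CCAAT, which begin 187, 161 and 142 bases before its start and do not overlap. Slc25a39 and Slc25a24, whose windows were 77.2% and 72.8% G or C, held none of the 6. Promoters on chromosome 18, which holds Slc25a2 and Slc25a46, were left out of the search. A promoter window was at hand for 34 of the carriers. Of these, 17 had CCAAT in at least 1 of their windows (50.0%, beside 37.5% of the 27025 genes searched), 7 had an E-box (20.6%, beside 6.86%) and 5 the ETS letters (14.7%, beside 7.83%). The NRF1 consensus was in 2 (Slc25a3 and Slc25a31), a CRE in 2 (Slc25a25 and Slc25a36) and the ERR half-site in none. Beside them stood 4.23%, 1.77% and 1.30% of the genes searched. Those 27025 genes outnumber the 11817 tested, so they include genes that did not pass the FPKM filter. The carriers were not set beside genes of like expression, and enrichment of a motif was not tested. A match is a run of letters and not a site of binding. The 3 windows shown of carriers that fell held no motif in common. Among carriers not shown, Slc25a15, which also fell by at least 0.5, held an E-box as Slc25a36 did. The E-box was also in Slc25a1, Slc25a13 and Slc25a33, which fell less, and in Slc25a14 and Slc25a31, which were not called. Beside Slc25a20, the ETS letters were in Slc25a3, Slc25a17 and Slc25a38, which rose, and in Slc25a4, which was not called. Whether a motif has a part in the falls or rises was not tested.

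**Figure D3:**
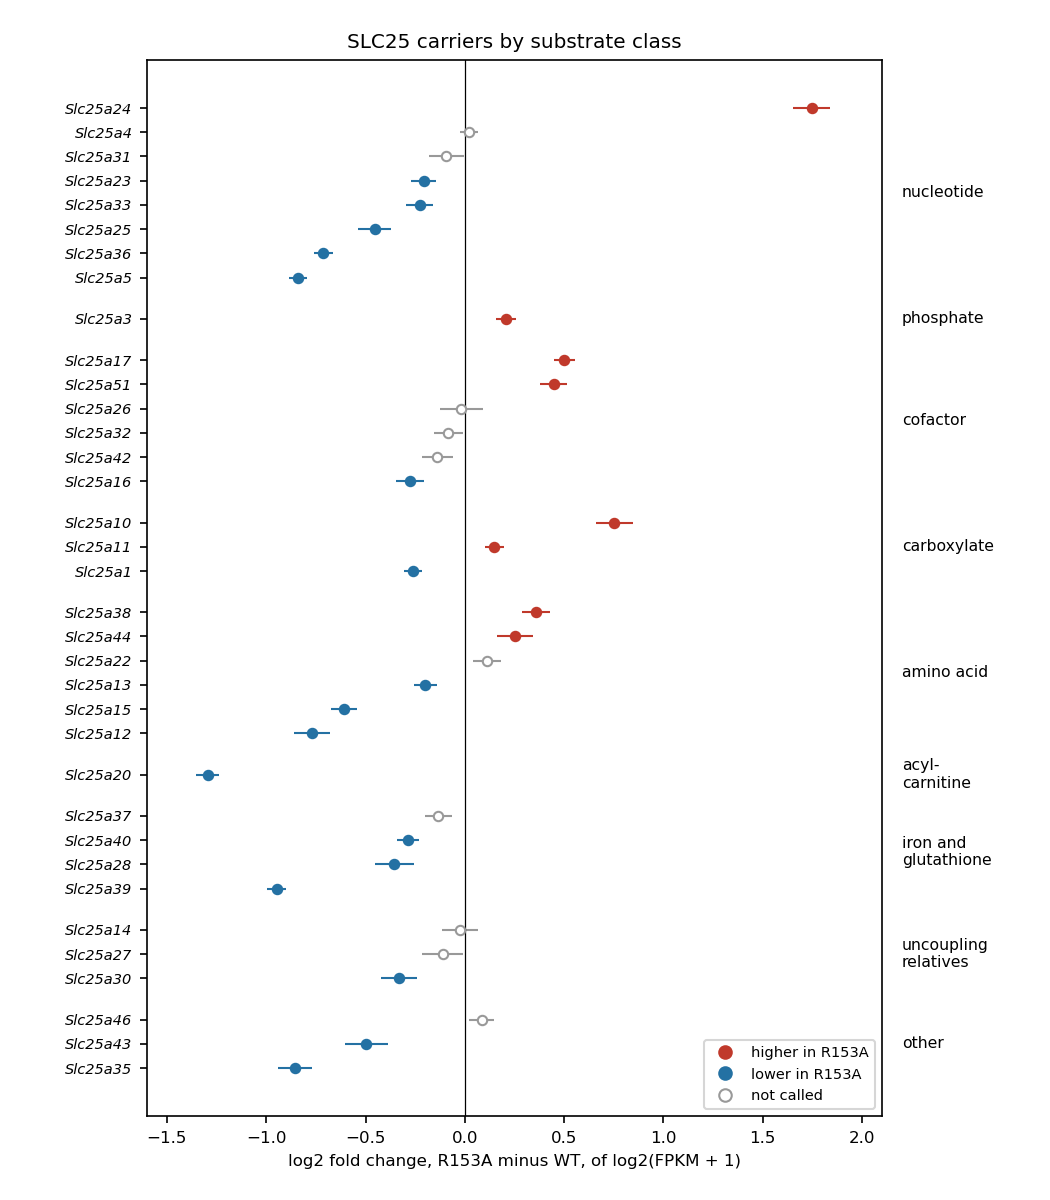
Log2 fold changes (R153A minus WT) with standard errors of the tested carriers that the text names, grouped by substrate class. Filled points passed a limma adjusted p of 0.05, red if higher and blue if lower in R153A, and open points did not. The nucleotide carriers hold 5 falls beside the rise of Slc25a24, and the 4 iron and glutathione carriers hold 3 falls and no rise. Of all genes tested, 22.3% were lower and 37.5% higher.

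Adenine nucleotide translocators exchange cytosolic ADP for matrix ATP, and Slc25a5 and Slc25a4 were the 2 most abundant carriers. Of the 8 nucleotide carriers tested, 5 fell, 1 rose and 2 did not pass. Slc25a5, which encodes ANT2, the form of proliferating cells, had 439, 462 and 448 FPKM in the R153A libraries, against 795, 815 and 808 FPKM in the WT libraries. All 3 R153A values lay well under the lowest WT value. The mean was 1.79-fold lower in R153A, a log2 fold change of -0.84 (adjusted p = 6.2e-08 by limma, SE 0.0464). Slc25a4, which encodes ANT1, the form typical of heart and muscle, had 229, 234 and 229.8 FPKM in the R153A libraries, against 226, 237 and 220.2 FPKM in the WT libraries. Its groups overlapped, and its log2 fold change was 0.02 (adjusted p = 0.725 by limma, SE 0.0459). That small difference turned below 0 in 4 alternatives, among which median-ratio scaling gave -0.06 and the GC and length correction -0.08. Slc25a31, ANT4 of the male germ line, had 1.32, 1.36 and 1.39 FPKM in the R153A libraries, against 1.62, 1.25 and 1.69 FPKM in the WT libraries, which overlap, and was not called (limma adjusted p = 0.389).

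Since Slc25a4 and Slc25a5 are close copies that moved differently, the beginning of both reading frames is shown to let the reader judge how far reads could be told apart. The longest reading frames in the GENCODE M21 transcripts were each 897 bases and shared 695 of them (77.5%), with no identical run over 20 bases. The first 120 coding bases follow, 5′ to 3′, with the 26 bases that differ in capitals.
Slc25a4: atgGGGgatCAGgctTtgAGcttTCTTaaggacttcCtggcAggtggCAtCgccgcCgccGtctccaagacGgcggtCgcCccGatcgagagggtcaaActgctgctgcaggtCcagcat
Slc25a5: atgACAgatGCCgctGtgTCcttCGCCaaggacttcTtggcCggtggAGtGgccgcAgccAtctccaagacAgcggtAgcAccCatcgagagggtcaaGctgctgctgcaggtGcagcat

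RefSeq also names 1 pseudogene after a carrier, Slc25a5-ps, and the sources used here do not say how reads shared with such copies were counted, so the level of Slc25a5 is uncertain to that extent. The ratio of Slc25a5 to Slc25a4 FPKM was 1.92, 1.97 and 1.95 in the R153A libraries and 3.52, 3.44 and 3.67 in the WT libraries. It was therefore lower in every R153A library, a difference of -0.86 on the log2 scale. The sum of both genes was 680.1 ± 14.1 FPKM in R153A and 1033 ± 15.7 FPKM in WT (n = 3 each).

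Slc25a5 also held the largest share of the family's summed level. Summed over the 45 carriers, FPKM was 1275, 1291 and 1287 in the R153A libraries, against 1679, 1729.8 and 1736 in the WT libraries. Slc25a5 made up 34.98% ± 0.679 of that sum in R153A and 46.99% ± 0.417 in WT (n = 3 each), and its own difference was 82.8% of the difference in the mean sums. Without Slc25a5 the sums were 835 ± 4.76 FPKM in R153A and 909 ± 22.7 FPKM in WT. The 3 most abundant members, Slc25a5, Slc25a4 and Slc25a3, together held 69.0% of the mean sum in R153A and 70.7% in WT. Members with a mean of at least 10 FPKM numbered 14 in R153A and 16 in WT. In both groups the order at the top was Slc25a5, Slc25a4 and Slc25a3, with groups of libraries that did not overlap between neighbours.

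**Figure D4:**
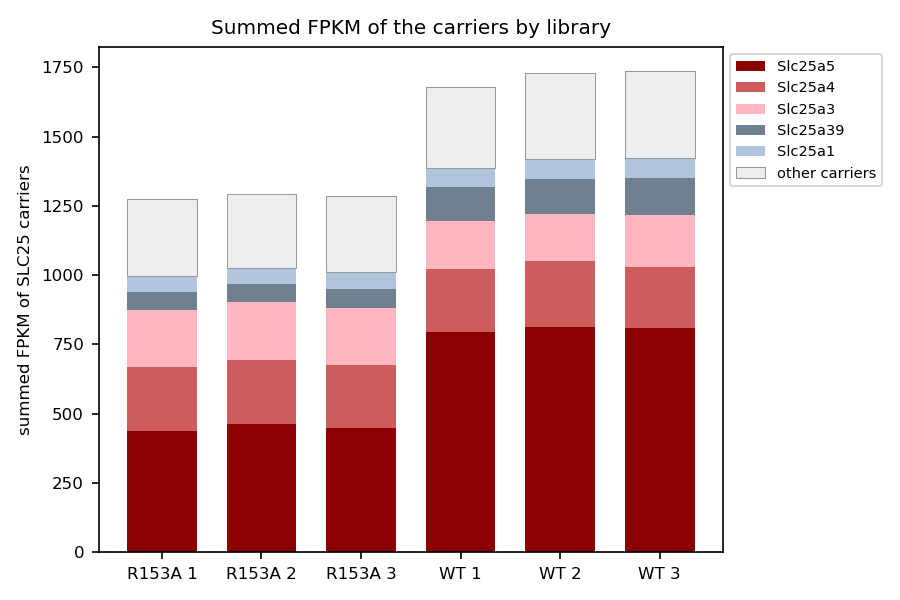
Summed FPKM of the 45 carriers in each library, R153A left of WT, with the 5 most abundant carriers as coloured segments and all others in light grey. Each R153A bar is lower than each WT bar, and the darkest segment, Slc25a5, accounts for most of the gap.

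Next to the translocators stands Slc25a3, the carrier that brings phosphate into the matrix for ATP synthesis. It had 208, 207 and 205 FPKM in the R153A libraries, against 175, 171 and 190.0 FPKM in the WT libraries, and all R153A values lay above all WT values. It was higher in R153A with a log2 fold change of 0.21 (adjusted p = 0.00397 by limma, SE 0.0499), a call that ended under median-ratio scaling (log2 fold change 0.12, limma adjusted p = 0.0617). After the GC and length correction the log2 fold change was 0.14. As deposited, Slc25a3 and Slc25a5, whose products feed ATP synthesis with phosphate and ADP, thus differed in direction.

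The ATP-Mg/phosphate carriers, which load or unload the matrix pool of adenine nucleotides and most of which respond to calcium, split. Slc25a24 had 3.89, 4.40 and 4.20 FPKM in the R153A libraries, against 0.576, 0.689 and 0.370 FPKM in the WT libraries. It rose 7.64-fold in mean FPKM, with a log2 fold change of 1.75 (adjusted p = 5.1e-08 by limma, SE 0.0937), and 2.76 with a pseudocount of 0.1. No WT library reached 1 FPKM for Slc25a24, which met the filter through R153A alone, so it had to differ to be tested. Its relatives went the other way, Slc25a25 with 3.91 ± 0.407 FPKM in R153A and 5.73 ± 0.384 FPKM in WT (n = 3 each, log2 fold change -0.45) and Slc25a23 with 6.12 ± 0.148 FPKM in R153A and 7.22 ± 0.330 FPKM in WT (log2 fold change -0.21). Both fell, but the Slc25a23 call ended without R153A replicate 3 (limma adjusted p = 0.0644) and without WT replicate 3 (0.0553), while its log2 fold change was -0.36 after correcting for GC and length and -0.33 with quantile normalization. Exons of Slc25a25 share 379 bases with Naif1 on the opposite strand, whose FPKM was 1.37 ± 0.110 in R153A and 1.35 ± 0.416 in WT. The sources used here do not say whether the counting used strand. The other member, Slc25a41, was not tested, at 0.193 to 0.518 FPKM in R153A and 0.130 to 0.214 FPKM in WT.

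Pyrimidine nucleotides reach the matrix through Slc25a33 and Slc25a36. Slc25a36 had 19.8, 19.1 and 19.04 FPKM in the R153A libraries, against 31.4, 32.2 and 33.2 FPKM in the WT libraries. The groups stood far apart, with a 1.67-fold lower mean in R153A and a log2 fold change of -0.71 (adjusted p = 3.5e-07 by limma, SE 0.0492). Slc25a33 had 16.7, 16.1 and 16.1 FPKM in the R153A libraries, against 17.3, 19.7 and 20.9 FPKM in the WT libraries, a smaller fall with a log2 fold change of -0.23 (adjusted p = 0.0141 by limma, SE 0.0686). Its call ended without WT replicate 3 (limma adjusted p = 0.0510), and its log2 fold change was -0.35 after the GC and length correction. The ratio of Slc25a36 to Slc25a33 was 1.19, 1.19 and 1.18 in the R153A libraries and 1.82, 1.64 and 1.59 in the WT libraries, so it was lower in every R153A library.

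Carriers of carboxylates, which export citrate for lipid synthesis and run the malate shuttles, differed in all 3 tested members, with 2 rises and 1 fall. Slc25a10, the dicarboxylate carrier that trades malate or succinate for phosphate, had 3.84, 3.63 and 4.20 FPKM in the R153A libraries, against 1.63, 2.26 and 1.83 FPKM in the WT libraries. Every R153A library exceeded every WT library, the mean was 2.04-fold higher and the log2 fold change was 0.75 (adjusted p = 3.9e-05 by limma, SE 0.0935). Slc25a1, the citrate carrier, fell, at 59.9 ± 0.996 FPKM in R153A and 72.01 ± 1.91 FPKM in WT (n = 3 each, log2 fold change -0.26, adjusted p = 4.5e-04 by limma, SE 0.0449), and its log2 fold change was -0.43 after the GC and length correction. Slc25a11, the oxoglutarate/malate carrier, stood at 30.96 ± 0.233 FPKM in R153A and 27.8 ± 0.629 FPKM in WT, a rise with a log2 fold change of 0.15 (adjusted p = 0.0181 by limma, SE 0.0469). That call ended in 6 alternatives, namely median-ratio scaling (log2 fold change 0.07, limma adjusted p = 0.176), the GC and length correction (0.03, 0.517) and without R153A replicate 1 (0.0601), 2 (0.0584) or 3 (0.0524) or WT replicate 1 (0.0522). Exons of Slc25a11 share 189 bases with Rnf167 on the opposite strand, which had 23.7 ± 0.423 FPKM in R153A and 24.1 ± 1.04 FPKM in WT.

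Of the 6 amino acid carriers tested, 3 fell, 2 rose and 1 did not pass. Slc25a12, the aspartate/glutamate carrier aralar of the malate-aspartate shuttle, had 6.01, 4.91 and 5.77 FPKM in the R153A libraries, against 9.31, 11.4 and 9.82 FPKM in the WT libraries. The ranges did not meet, and the log2 fold change was -0.77 (adjusted p = 2.3e-05 by limma, SE 0.0896). Its paralog Slc25a13, citrin, had 26.1, 25.1 and 26.6 FPKM in the R153A libraries, against 29.1, 32.2 and 28.6 FPKM in the WT libraries, a fall with a log2 fold change of -0.20 (adjusted p = 0.0114 by limma, SE 0.0575). The ratio of Slc25a13 to Slc25a12 was 4.35, 5.11 and 4.61 in the R153A libraries and 3.13, 2.82 and 2.91 in the WT libraries, higher in each R153A library. Slc25a15, the ornithine carrier that links the cytosol to matrix ornithine metabolism, had 7.32, 7.31 and 7.66 FPKM in the R153A libraries, against 11.1, 12.7 and 11.8 FPKM in the WT libraries. It fell by 0.61 on the log2 scale (adjusted p = 1.3e-05 by limma, SE 0.0659), with no overlap between groups.

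Slc25a38, the glycine carrier that feeds heme synthesis, rose, with 13.8 ± 1.20 FPKM in R153A and 10.5 ± 0.534 FPKM in WT (n = 3 each, log2 fold change 0.36, adjusted p = 0.00124 by limma, SE 0.0712), and its log2 fold change was 0.21 after the GC and length correction. Slc25a44, a carrier of branched-chain amino acids, rose with 5.27 ± 0.417 FPKM in R153A and 4.27 ± 0.578 FPKM in WT (log2 fold change 0.25, adjusted p = 0.0310 by limma, SE 0.0906). The Slc25a44 call ended in 8 alternatives, namely no filter on low values (limma adjusted p = 0.0854), median-ratio scaling (0.0838), quantile normalization (log2 fold change 0.11, adjusted p 0.298), the GC and length correction (0.13, 0.188) and without R153A replicate 2 (0.109) or 3 (0.0548) or WT replicate 1 (0.117) or 3 (0.0691). The glutamate carrier Slc25a22 stood at 7.09 ± 0.215 FPKM in R153A and 6.50 ± 0.533 FPKM in WT and did not pass. Slc25a18, Slc25a29 and Slc25a2, a glutamate, a basic amino acid and an ornithine carrier, were too low to be tested. Slc25a29 was at 0.381 to 0.648 FPKM in R153A and 0.260 to 0.381 FPKM in WT.

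Slc25a20 is the carnitine/acylcarnitine carrier, through which long-chain fatty acids enter the matrix for oxidation. It fell, with 6.91, 6.85 and 6.65 FPKM in the R153A libraries, against 18.3, 17.3 and 18.8 FPKM in the WT libraries. No R153A library came near the WT range. The mean was 2.67-fold lower in R153A, with a log2 fold change of -1.29 (adjusted p = 1.3e-08 by limma, SE 0.0583). Carnitine palmitoyltransferase genes act on either side of this carrier. Of the 6 genes of the carnitine shuttle tested, 4 rose, 1 fell and 1 did not pass. Cpt1a, the outer membrane enzyme that makes long-chain acylcarnitines, fell to 1.42 ± 0.0436 FPKM in R153A, against 4.72 ± 0.380 FPKM in WT (log2 fold change -1.24). Cpt1c, the brain-type relative, rose with 21.3 ± 1.05 FPKM in R153A and 8.83 ± 1.15 FPKM in WT (log2 fold change 1.19), and Cpt1b, the muscle form, with 1.39 ± 0.312 FPKM in R153A and 0.774 ± 0.161 FPKM in WT. Cpt1b passed the filter only through R153A, and its call ended under quantile normalization (log2 fold change 0.15, limma adjusted p = 0.263). As deposited its log2 fold change was 0.43, and with a pseudocount of 0.1 it was 0.77.

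Among the iron and glutathione carriers, 3 of 4 fell and none rose, beside 22.3% of all genes lower and 37.5% higher. The class has only 4 members, and whether its shares differ from those of all genes was not tested. Slc25a39, which imports glutathione into the matrix, had 62.1, 64.8 and 66.4 FPKM in the R153A libraries, against 121, 124 and 131 FPKM in the WT libraries. The lowest WT library was above the highest R153A library by a wide margin, and the log2 fold change was -0.95 (adjusted p = 4.3e-08 by limma, SE 0.0498), a 1.94-fold lower mean. Its relative Slc25a40 had 13.5, 13.3 and 14.4 FPKM in the R153A libraries, against 16.7, 17.2 and 17.0 FPKM in the WT libraries, a fall with a log2 fold change of -0.29 (adjusted p = 9.5e-04 by limma, SE 0.0549). The ratio of Slc25a40 to Slc25a39 was 0.217, 0.205 and 0.217 in the R153A libraries and 0.139, 0.138 and 0.130 in the WT libraries. Slc25a28, mitoferrin 2, an iron importer, had 15.2, 12.8 and 13.8 FPKM in the R153A libraries, against 15.7, 17.4 and 21.4 FPKM in the WT libraries, without overlap. It fell, with a log2 fold change of -0.35 (adjusted p = 0.00963 by limma, SE 0.0993). With no filter on low values its log2 fold change was the same but the call ended (limma adjusted p = 0.0554). Slc25a37, mitoferrin 1, which serves iron import in red cell precursors, had 5.56, 5.04 and 5.12 FPKM in the R153A libraries, against 5.55, 5.91 and 6.08 FPKM in the WT libraries. Those ranges overlapped, and it was not called (log2 fold change -0.13, adjusted p = 0.120 by limma, SE 0.0695). It was called lower under median-ratio scaling, quantile normalization and the GC and length correction (limma adjusted p = 0.0147, 0.00294 and 0.00379). The ratio of Slc25a37 to Slc25a28 was 0.367, 0.393 and 0.372 in the R153A libraries and 0.352, 0.339 and 0.284 in the WT libraries.

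**Figure D5:**
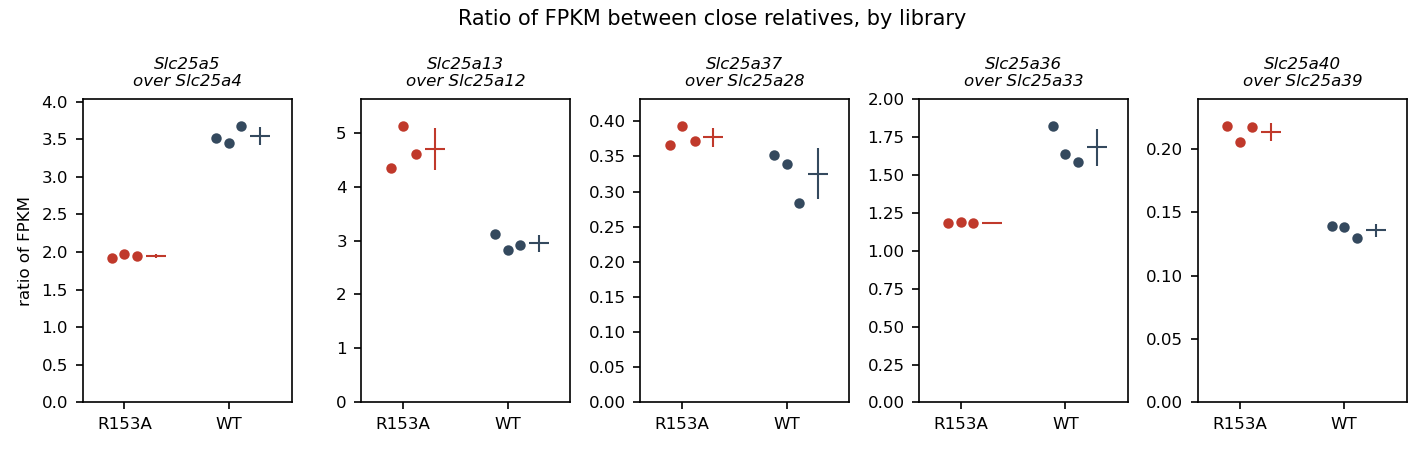
Ratio of FPKM between close relatives in each library, R153A left of WT, with crosses for mean ± SD over 3 libraries. In all 5 pairs the R153A ratios lie wholly on one side of the WT ratios, lower for Slc25a5 over Slc25a4 and Slc25a36 over Slc25a33 and higher for the other 3. The gap is narrow for Slc25a37 over Slc25a28 (0.367 in R153A against 0.352 in WT). Single genes did not overlap for 65.0% of all genes tested, and other pairs of genes were not examined.

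Ratios within these 5 pairs do not depend on the scaling of a library. A two-sided exact permutation test gave p = 0.1 for each, the lowest value it can give here, and 0.1 after Benjamini-Hochberg adjustment over the 5 pairs, so that none can pass at this number of libraries. Coding sequences of the other 4 pairs were 71.8% (Slc25a12 and Slc25a13), 72.4% (Slc25a28 and Slc25a37), 65.6% (Slc25a33 and Slc25a36) and 60.1% (Slc25a39 and Slc25a40) identical over the aligned bases.

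Carriers of cofactors gave 2 rises, 1 fall and 4 members that did not pass. Slc25a17, which sits in the peroxisome and carries coenzyme A, FAD and related nucleotides there, had 22.6, 23.3 and 21.9 FPKM in the R153A libraries, against 14.95, 16.1 and 16.02 FPKM in the WT libraries. It was higher in every R153A library than in every WT library (log2 fold change 0.50, adjusted p = 1.4e-05 by limma, SE 0.0546). Slc25a51, the importer of NAD+ into the matrix, rose with 12.2 ± 0.934 FPKM in R153A and 8.70 ± 0.353 FPKM in WT (n = 3 each, log2 fold change 0.45, adjusted p = 1.8e-04 by limma, SE 0.0677). Slc25a16, a carrier linked to coenzyme A, fell with 5.93 ± 0.224 FPKM in R153A and 7.40 ± 0.492 FPKM in WT (log2 fold change -0.28, adjusted p = 0.00517 by limma, SE 0.0693). Those that did not pass included Slc25a42, another coenzyme A carrier, at 2.05 ± 0.0255 FPKM in R153A and 2.36 ± 0.188 FPKM in WT, Slc25a32, which carries folate and FAD, at 4.99 ± 0.317 FPKM in R153A and 5.35 ± 0.309 FPKM in WT, and Slc25a26, the S-adenosylmethionine carrier, at 3.39 ± 0.598 FPKM in R153A and 3.43 ± 0.371 FPKM in WT. Slc25a42 and Slc25a32 were called lower under median-ratio scaling (limma adjusted p = 0.0435 and 0.0478), and also under the GC and length correction and under quantile normalization.

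Of 3 relatives of the uncoupling proteins, 1 fell and 2 did not pass. Slc25a30 fell, with 3.99 ± 0.394 FPKM in R153A and 5.29 ± 0.586 FPKM in WT (n = 3 each, log2 fold change -0.33, adjusted p = 0.00815 by limma, SE 0.0904). Slc25a14 stood at 2.77 ± 0.341 FPKM in R153A and 2.82 ± 0.246 FPKM in WT and Slc25a27 at 1.72 ± 0.346 FPKM in R153A and 1.93 ± 0.219 FPKM in WT, and neither passed. The uncoupling proteins themselves belong to the same family under other symbols. Ucp2, which exports carbon intermediates of the citric acid cycle, had 62.7, 65.9 and 66.2 FPKM in the R153A libraries, against 164, 167 and 179.8 FPKM in the WT libraries, with no overlap. Its log2 fold change of -1.38 (adjusted p = 2.9e-09 by limma, SE 0.0501) stands beside -1.29 for Slc25a20. Ucp1 and Ucp3, known from brown fat and muscle, stayed under 0.1 FPKM in every library. Mtch1, an outer membrane relative of the carriers, had 92.8, 90.5 and 87.9 FPKM in the R153A libraries, against 34.7, 39.3 and 36.7 FPKM in the WT libraries. It rose (log2 fold change 1.27, adjusted p = 8.9e-09 by limma, SE 0.0543), while its relative Mtch2, an insertase of the outer membrane, stood at 31.4 ± 1.04 FPKM in R153A and 34.3 ± 1.83 FPKM in WT and did not pass. Of these 5 genes with other symbols 3 were tested, and 1 rose, 1 fell and 1 did not pass.

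The 8 remaining carriers have no settled substrate or act outside metabolite exchange, and of the 3 tested 2 fell and 1 did not pass. Slc25a35 had 0.383, 0.490 and 0.626 FPKM in the R153A libraries, against 1.68, 1.68 and 1.76 FPKM in the WT libraries. It fell 3.42-fold in mean FPKM, with a log2 fold change of -0.86 (adjusted p = 7.1e-06 by limma, SE 0.0862), and -1.61 with a pseudocount of 0.1. No R153A library reached 1 FPKM for Slc25a35, which met the filter through WT alone, so it had to differ to be tested. Its annotated exons share 1151 bases with those of Rangrf on the opposite strand, a gene of 29.2 ± 0.546 FPKM in R153A and 34.96 ± 4.36 FPKM in WT (log2 fold change -0.24, limma adjusted p = 0.0208). Reads of Rangrf and of Slc25a35 in that stretch cannot be told apart without strand. Slc25a43 fell, with 2.62 ± 0.570 FPKM in R153A and 4.07 ± 0.327 FPKM in WT (n = 3 each, log2 fold change -0.50, adjusted p = 0.00229 by limma, SE 0.109). Slc25a46, an outer membrane protein of mitochondrial fission and lipid transfer, stood at 9.19 ± 0.424 FPKM in R153A and 8.61 ± 0.355 FPKM in WT and did not pass.

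Slc25a43 and Slc25a5 are next to each other on chromosome X among protein-coding genes (RefSeq, GRCm38.p6), and both fell. Slc25a14 is the other X-linked carrier tested. Over the 439 X-linked genes tested, 33.3% were lower and 36.7% higher, with a median log2 fold change of -0.02. Beside them, 22.3% of all genes were lower. Whether the chromosome has a part in the fall of these carriers was not tested. Slc25a23 with Slc25a41 and Slc25a29 with Slc25a47 are also adjacent, but in each of those pairs at least 1 gene was too low to be tested. Transcripts on the opposite strand in GENCODE M21 also share exon bases with Slc25a10 (228 bases), Slc25a23 (168), Slc25a33 (281) and Slc25a37 (92 with Gm27223 and 381 with Gm31748). The protein-coding genes Lrig1 and B930094E09Rik share 144 bases with Slc25a26 and 383 bases with Slc25a46. Reads of all these genes may be counted with those of the carrier.

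The 9 carriers that were not tested lay between 0.0237 and 1.05 FPKM in all libraries. Of these only Slc25a47, a liver-type carrier, and Slc25a53 had libraries that did not overlap between groups. The 65.0% without overlap was taken over genes that passed the filter. No such share was computed for genes under it, so this count has no background. Slc25a47 had 1.04, 0.769 and 1.05 FPKM in the R153A libraries, against 0.173, 0.151 and 0.604 FPKM in the WT libraries, and all R153A values were above all WT values. Slc25a53 had 0.813, 0.759 and 0.725 FPKM in the R153A libraries, against 0.481, 0.450 and 0.706 FPKM in the WT libraries, with a narrow gap between the groups. For Slc25a2, Slc25a18, Slc25a29, Slc25a34, Slc25a41, Slc25a45 and Slc25a48 the groups overlapped.

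Genes that work with the carriers moved in both directions. Carrier precursors are brought to the inner membrane by small TIM chaperones and inserted by the TIM22 complex, and the 15 import genes, all tested, gave 5 rises and 3 falls. Timm22, the insertase itself, rose with 9.02 ± 0.366 FPKM in R153A and 6.30 ± 0.336 FPKM in WT (n = 3 each, log2 fold change 0.46), while the chaperone gene Timm10 fell with 21.01 ± 1.01 FPKM in R153A and 31.5 ± 1.23 FPKM in WT (log2 fold change -0.56). Timm9, its partner, rose with 14.7 ± 1.53 FPKM in R153A and 11.2 ± 2.00 FPKM in WT, but was no longer called with no filter (limma adjusted p = 0.0766), under median-ratio scaling or quantile normalization (0.0634 each) or without R153A replicate 3 (0.0598). Of the 3 outer membrane channels, Vdac1 fell with 219 ± 7.02 FPKM in R153A and 253 ± 3.23 FPKM in WT and the other 2 did not pass. The log2 fold change of Vdac1 was -0.20, and -0.31 after the GC and length correction.

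Among 14 tested inner membrane transporters outside the family, 3 rose, 4 fell and 7 did not pass. Mpc1, a subunit of the mitochondrial pyruvate carrier, had 3.38, 2.13 and 2.53 FPKM in the R153A libraries, against 8.58, 9.36 and 9.26 FPKM in the WT libraries, a log2 fold change of -1.46 (adjusted p = 6.8e-07 by limma, SE 0.110). No R153A library came near the WT range. Micu2, a gatekeeper of the calcium uniporter, rose with 8.08 ± 0.413 FPKM in R153A and 6.04 ± 0.293 FPKM in WT. Sfxn5, a sideroflexin, had 1.36 ± 0.0473 FPKM in R153A and 0.671 ± 0.0954 FPKM in WT, also a rise, and passed the filter only through R153A. Its log2 fold change was 0.50, but 0.20 under quantile normalization (limma adjusted p = 0.0431) and 0.92 with a pseudocount of 0.1.

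Enzymes on either side of the carriers were mixed as well. Of the 5 tested enzymes of the malate-aspartate shuttle, which Slc25a12, Slc25a13 and Slc25a11 serve, and of the glycerol phosphate shuttle, 1 rose, 1 fell and 3 did not pass. Got1, the cytosolic transaminase, fell with 43.3 ± 1.87 FPKM in R153A and 71.02 ± 2.12 FPKM in WT, and Got2, the matrix form, rose with 106 ± 4.22 FPKM in R153A and 89.1 ± 4.40 FPKM in WT, a call that ended after the GC and length correction (log2 fold change 0.11, limma adjusted p = 0.0573). Of 9 genes of citrate use and entry 3 rose, 4 fell and 2 did not pass. Idh2, the matrix isocitrate dehydrogenase, fell with 38.4 ± 1.63 FPKM in R153A and 80.6 ± 5.37 FPKM in WT (log2 fold change -1.05), as did citrate synthase, Cs, with 57.6 ± 0.727 FPKM in R153A and 69.8 ± 2.86 FPKM in WT. The matrix malic enzyme gene Me2 rose with 50.7 ± 0.945 FPKM in R153A and 40.8 ± 1.23 FPKM in WT.

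In ornithine and glutamate metabolism, next to Slc25a15 and Slc25a22, rises numbered 3, falls 2, and 1 of the 6 tested did not pass. Pycr1, which makes proline in mitochondria, fell with 4.91 ± 0.234 FPKM in R153A and 13.5 ± 0.464 FPKM in WT (log2 fold change -1.30), and Aldh18a1, the enzyme that starts proline and ornithine synthesis from glutamate, fell with 21.8 ± 0.305 FPKM in R153A and 39.6 ± 2.90 FPKM in WT. Glud1, glutamate dehydrogenase, rose with 119 ± 2.11 FPKM in R153A and 81.4 ± 2.29 FPKM in WT. In iron, heme and glutathione metabolism there were 5 rises and 2 falls among 9 tested genes. Fech, which puts iron into heme, rose with 11.1 ± 0.599 FPKM in R153A and 7.03 ± 0.426 FPKM in WT. For glutathione synthesis, Gclc rose with 31.3 ± 2.88 FPKM in R153A and 20.4 ± 0.969 FPKM in WT while Gss fell with 4.23 ± 0.123 FPKM in R153A and 7.08 ± 0.368 FPKM in WT.

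One-carbon and cofactor genes gave 1 rise, 5 falls and 2 members that did not pass. Shmt2, the matrix serine hydroxymethyltransferase, fell with 67.8 ± 1.40 FPKM in R153A and 117 ± 5.65 FPKM in WT (log2 fold change -0.78), Mthfd2, the next enzyme of that pathway, with 54.1 ± 0.122 FPKM in R153A and 83.4 ± 0.936 FPKM in WT, and Nadk2, the mitochondrial NAD kinase, with 18.3 ± 0.503 FPKM in R153A and 23.2 ± 0.211 FPKM in WT. The 7 tested regulators of mitochondrial biogenesis gave 1 rise and 2 falls. Gabpa, an ETS factor of mitochondrial genes, fell with 18.5 ± 0.324 FPKM in R153A and 25.3 ± 0.0681 FPKM in WT (log2 fold change -0.43), and the coactivator gene Pprc1 with 28.9 ± 1.67 FPKM in R153A and 38.5 ± 3.29 FPKM in WT. The log2 fold change of Pprc1 was -0.40, and -0.61 after the GC and length correction. Yy1 rose with 47.2 ± 1.70 FPKM in R153A and 38.6 ± 2.15 FPKM in WT, with a log2 fold change of 0.28, and of 0.12 after the GC and length correction.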

How the data were processed

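Polyadenylated RNA of 3 R153A and 3 WT libraries was sequenced. The authors deposited FPKM values, 1 per library for each gene symbol. The submitters' processing notes name Bowtie2 2.3.4.3, SAMtools 1.9, HTSeq 0.11.2 and edgeR 3.26.8 and the build mm9 without saying what each was used for. What computed FPKM, the annotation, strand use and filtering: not given in the sources used here. Depth is unknown, so counting intervals and count tests were left out.

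FPKM was used as deposited, on the scale log2(FPKM + 1), for genes that reached 1 FPKM in 3 or more libraries. R153A and WT were compared with limma 3.58.1 (R 4.3.3, trended prior variance, two-sided), p-values were adjusted by Benjamini-Hochberg over all 11817 genes tested, and calls were made under 0.05. The fit was checked on simulated data. Every carrier is counted, and 1 of them is not reported by name here. Values by library are given for carriers called with a log2 fold change of at least 0.5, for the 3 most abundant and for 5 close pairs, and from each list of partner genes up to 3 called genes are named by the size of the change. Slc25a31, Slc25a47, Slc25a53, Cpt2, Mtch2, Ucp1, Ucp3, Tdgf1, Sall4, Thy1, Lum and the genes that overlap carriers were named after their values were seen. The carriers, the lists and the tests were chosen with earlier results of these data known.

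Alternatives changed 1 choice at a time: the pseudocount (0.1 or 0.5), the filter (none or 5 FPKM), the scaling (median-ratio, TPM or quantile), the variance model (no trend, or robust), a block on replicate numbers, and 1 library left out. A loess correction for GC content and length (span 0.5, on GENCODE M21 transcripts matched through symbols, 11316 genes or 95.8%) was added after the data were seen. Exon overlaps come from GENCODE M21, pairs were aligned with Biopython 1.88, and matplotlib 3.10.9 on Python 3.11.15 drew the figures.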

Additional observations from a re-analysis of the deposited data

How the results depend on the processing

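Of the 25 carriers called, 19 kept their direction and their call in every alternative that tested them; the exceptions were Slc25a3, Slc25a11, Slc25a23, Slc25a28, Slc25a33 and Slc25a44. With 5 FPKM as the filter, only 25 carriers were tested, and 5 were called higher and 14 lower. Slc25a10, Slc25a24 and Slc25a44 were not tested there, so their calls were not lost. Median-ratio scaling tested all 36 carriers and called 5 higher rather than 8. The carriers' median log2 fold change was -0.075 with no filter, over 45 carriers, and -0.21 with the filter of 5 FPKM, over 25. Over the 36 carriers it was -0.20 with median-ratio scaling, -0.27 after the GC and length correction and -0.28 with quantile normalization. Between 22 and 25 carriers were called when each library was left out. Some carriers that were not called changed sign as follows. Slc25a4 had log2 fold changes of -0.0639 with median-ratio scaling, -0.00432 as TPM and -0.0847 after the GC and length correction, Slc25a46 -0.00920 with quantile normalization, and Slc25a22 -0.00754 with quantile normalization. Slc25a22 was called lower after the GC and length correction, at -0.16 (limma adjusted p = 0.0349), and Slc25a27, Slc25a31, Slc25a32, Slc25a37 and Slc25a42 were each called lower in at least 1 alternative. With 1 library left out, Slc25a4 ranged over -0.00335 to 0.0480, Slc25a14 over -0.0734 to 0.0528 and Slc25a26 over -0.0891 to 0.10. The cause of these changes was not tested.

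Libraries share a replicate number across groups, but their deviations correlated at -0.05, -0.01 and 0.06 for replicates 1, 2 and 3, and only R153A replicate 3 correlated best with its own number. The replicate block called 25 carriers, 8 higher and 17 lower, and 6876 of all genes, compared with 7062. No call of a carrier changed under the block. Low FPKM values limit the 9 carriers that were not tested.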
